A study of Drosophila melanogaster with 16 samples.

Results

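The 8 libraries of *dfr14* mutant larvae were compared between the brain-ring gland complex (BRGC) and the rest of the body, 4 libraries of each, out of 16 libraries in the series. Members were taken by genotype, not by any measured value: the *dfr14* columns of the BRGC table and those of the body table, joined by gene identifier. The other 8 libraries, 4 of the BRGC and 4 of the body of control larvae, were used only to ask which tissue differences were also found without the mutation. *dfr14* is a short CRISPR/Cas9 deletion just behind the first stop codon of *ventral veins lacking* (*vvl*, also called *drifter* or *dfr*), which shifts the reading frame so that the readthrough form of the protein, Dfr-L, is lost while the shorter Dfr-S is still made. On immunoblots the study reported more Dfr-S, or possibly a truncated Dfr-L, in *dfr14* than in controls. Per the study's methods, all larvae were wandering larvae, the *dfr14* line had been outcrossed to a w;; MKRS/TM6B balancer stock, and controls were w[1118]. Differences between the lines other than the deletion may therefore remain. All samples are labelled as untreated and of w[1118] background. The methods also say that BRGCs and bodies came from different larvae and that the bodies lacked BRGCs, mouth hooks and salivary glands. Titles and genotype tags of the samples disagree, because the tag changes with the tissue, and the titles were followed. Replicate numbers are not in the column names. Library 1 to 4 here means the place in each table, and nothing states that they came from separate crosses. A p-value then measures only the spread between these libraries.

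The BRGC holds the larval brain, with its neurons, glia and dividing neuroblasts, and the ring gland, an endocrine organ made of the prothoracic gland, the corpora allata and the corpora cardiaca. The prothoracic gland turns dietary sterols into ecdysone through the Halloween enzymes, and tissues of the body convert ecdysone into its active form. *vvl* encodes a POU-domain transcription factor needed in the prothoracic gland for the expression of these enzymes, and it also acts in the trachea and the nervous system. The rest of the larval body is dominated by fat body, muscle, gut, cuticle-forming epidermis, blood cells and gonads.

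Reads counted to genes ranged from 19423852 to 27673191 in the *dfr14* BRGC libraries and from 17050491 to 27360849 in the *dfr14* body libraries. Of these reads, 6.72 to 12.7% in the BRGC and 8.24 to 12.9% in the body came from mitochondrially encoded transcripts, and the 10 most abundant genes took 9.03 to 13.9% and 19.8 to 21.03%. Body levels were the less precise ones, with a median SD of log2 levels over genes of 0.27 against 0.15 in the BRGC. No Y-linked gene is listed in the BRGC table, and those of the body table had 338, 237, 1482 and 1043 reads in *dfr14* body libraries 1 to 4. Control body library 4 lacked reads for 1685 genes, where the other body libraries lacked 32 to 189. It also had 0 Y-linked reads, against 1429, 2411 and 847 in control body libraries 1 to 3. The counts of enriched control genes and of changes between the genotypes are also given without it. Levels are in CPM (counts relative to library size), scaled over all 16 libraries together. A tissue difference is the log2 level in the BRGC minus that in the body, and it is positive where the BRGC is higher. It was tested with limma and is given with its standard error (SE), with p-values adjusted over all genes by the Benjamini-Hochberg method, and a gene is called at an adjusted p under 0.05. A called gene with a difference of at least 2 on the log2 scale, which is 4-fold, is termed enriched. A fold change in a whole tissue cannot tell fewer cells of a type from less RNA per cell.

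Brain and body of *dfr14* larvae differed in most genes. Of 9248 genes listed in both tables and tested, 6533 were called, 3291 higher in the BRGC (35.6%) and 3242 higher in the body (35.1%), around a median difference of -0.02. The BRGC had 663 enriched genes (7.17%) and the body 1218 (13.2%). The 4 libraries of each tissue did not overlap for 1859 of the 1881 enriched genes and for 6083 of all 6533 called genes. The threshold nearly fixes such counts, so they add nothing to the calls. The body held the larger differences, down to -13.84 against at most 8.22 in the BRGC. The split of calls depends on the scaling. With library size alone the median of all genes moved to 0.69, and 5358 genes were higher in the BRGC and 1809 in the body. With quantile normalization it moved to 0.25, with 4067 and 2623. The enriched genes moved to 1074 and 902 with library size alone and to 779 and 1057 with quantile normalization. At the threshold, *ft* (2.002) was just inside and *CG14082* (1.998) just outside on the BRGC side. On the body side *CG30196* was inside and *NimC3* outside, with sizes of 2.002 and 1.999, so genes at this size are not told apart by the term.

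**Figure D1:**
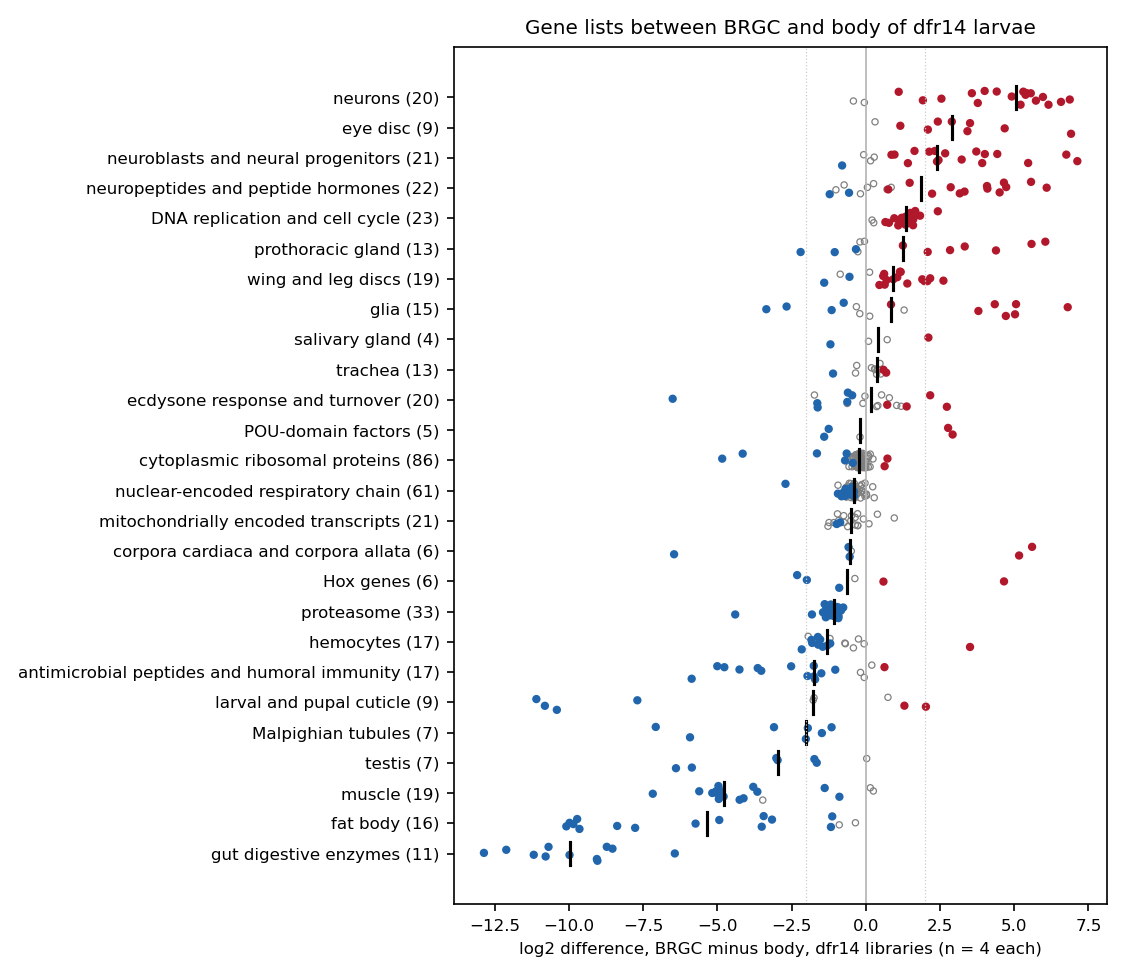
The log2 difference between BRGC and body in *dfr14* larvae is plotted for each tested gene of 26 lists, with the number of genes in parentheses. Filled points passed limma at an adjusted p under 0.05 (red higher in the BRGC, blue higher in the body), open points did not, black bars are list medians and dotted lines mark a difference of 2 in each direction. Neuron genes lie at the right end with a median of 5.07 and gut digestive enzymes at the left end with -9.98.

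Most of the listed neuron genes were higher in the BRGC. Higher levels in the BRGC were called for 18 of 20 neuron genes, 16 of them enriched, and higher levels in the body for 0, with a list median of 5.07 against -0.02 over all genes. *elav*, the RNA-binding protein that marks neurons, had 345, 273, 458 and 394 CPM in the BRGC against 19.6, 24.2, 20.2 and 24.8 CPM in the body. Its difference was 4.005 (SE 0.16, adjusted p = 2.4e-07), and the groups did not overlap. *VGlut* (chromosome arm 2L, 2400295 to 2410662 of the Release 6 plus ISO1 MT assembly, as are all positions given), the vesicular glutamate transporter of motor neurons, had 118, 78.5, 164 and 145 CPM in the BRGC against 3.12, 0.168, 0.227 and 4.13 CPM in the body. The BRGC was far above the body in every library, and body libraries 1 and 4 stood above libraries 2 and 3. The difference was 6.87 (SE 0.92, adjusted p = 0.00016), with a standard error several times that of *elav*. *fne*, an *elav* paralog, and *Rdl*, a GABA receptor subunit, followed with differences of 6.58 and 6.16. The 2 neuron genes that did not pass were *Syt1*, a synaptic vesicle calcium sensor, and *Syx1A*, a syntaxin of vesicle fusion. *Syt1* had 167, 108, 266 and 201 CPM in the BRGC against 242, 199, 213 and 279 CPM in the body, which overlapped (difference -0.42, adjusted p = 0.16). Without BRGC library 3 it was called higher in the body (-0.61, adjusted p = 0.039), and with 1 library left out at a time its difference ran from -0.61 to -0.18. *Syx1A* had a difference of -0.05 (adjusted p = 0.82), and with library size alone it was called higher in the BRGC (0.66, adjusted p = 0.0028).

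The 10 most BRGC-enriched genes with at least 10 CPM and no overlap were *CR43283*, *Rbp6*, *nerfin-1*, *Dscam2*, *scrt*, *2mit*, *nAChRalpha7*, *toy*, *CG42492* and *VGlut*, with differences from 8.22 to 6.87. *CR43283* (3R, 11247631 to 11256123), a long noncoding RNA gene, led with 1050.0, 700.3, 1665 and 1009 CPM in the BRGC against 9.75, 1.01, 1.54 and 8.34 CPM in the body. BRGC library 3 was the highest and body libraries 1 and 4 were well above libraries 2 and 3, and the difference was 8.22 (SE 0.71, adjusted p = 1.2e-05). *Rbp6*, an RNA-binding protein related to Musashi, had 405, 285, 450.1 and 375 CPM in the BRGC against 3.12, 0.838, 1.04 and 2.56 CPM in the body, a difference of 7.73 (SE 0.40, adjusted p = 7.4e-07). *nerfin-1*, a zinc finger factor of young neurons, had 295, 192, 261 and 250.0 CPM in the BRGC against 1.95, 0.279, 0.954 and 2.33 CPM in the body, a difference of 7.69 (SE 0.53, adjusted p = 3.3e-06). In the body both genes were again highest in libraries 1 and 4. That order held widely: of the 663 BRGC-enriched genes, body library 4 was the highest body library for 328 and library 1 for 179, against 113 for library 3 and 43 for library 2. Their median level in the body was 2.11, 1.23, 1.498 and 2.48 CPM in libraries 1 to 4. Among the BRGC libraries, library 3 was the highest for 450 of the 663 genes and library 2 for 24. Whether these levels reflect brain RNA carried into the body samples was not tested.

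Neural progenitors and glia followed, with more exceptions. Of 27 neuroblast and progenitor genes, 21 were tested, 17 were higher in the BRGC and 1 in the body, with a median of 2.40, and 13 were enriched. The other 6, *bsh*, *hb*, *wor*, *l(1)sc*, *tll* and *erm*, are listed for the BRGC alone. *scrt*, a zinc finger factor of the Snail family, had 168, 129.7, 218 and 181 CPM in the BRGC against 2.34, 0.614, 0.999 and 1.05 CPM in the body, a difference of 7.13 (SE 0.35, adjusted p = 6e-07). *pros*, the homeodomain factor that ends progenitor division, had 867, 565, 858 and 799.6 CPM in the BRGC against 9.59, 4.13, 4.77 and 11.6 CPM in the body, a difference of 6.75 (SE 0.33, adjusted p = 5.5e-07). *ase*, a proneural factor of neuroblasts, had 26.4, 26.7, 30.7 and 24.6 CPM in the BRGC against 0.312, 0.614, 0.772 and 0.451 CPM in the body, a difference of 5.47 (SE 0.26, adjusted p = 4.3e-07). No body library came near any BRGC library for these genes. *dpn*, the bHLH factor that defines neuroblasts, was also enriched, at 2.33 (adjusted p = 3.3e-06). *svp*, a nuclear receptor with roles in many tissues, was the one member higher in the body, at -0.80 (adjusted p = 0.0013).

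The 15 tested glia genes split, with 7 higher in the BRGC, 4 higher in the body and a median of 0.85. *repo*, the homeodomain factor that marks glia, had 37.4, 29.6, 40.2 and 33.4 CPM in the BRGC against 2.03, 0.838, 0.772 and 1.65 CPM in the body, a difference of 4.72 (SE 0.31, adjusted p = 2.5e-06). *alrm*, an astrocyte gene, *Mdr65*, a transporter of the blood-brain barrier, and *wrapper*, a protein of midline glia, were enriched at 6.802, 5.06 and 5.03. Enriched in the body instead were *Gs2*, a glutamine synthetase, and *Tret1-1*, a trehalose transporter. *Gs2* had 93.2, 70.1, 134 and 91.4 CPM in the BRGC against 776, 621, 1473 and 1151 CPM in the body, a difference of -3.35 (SE 0.29, adjusted p = 1.1e-05). *Tret1-1* had a difference of -2.67 (SE 0.18, adjusted p = 2.6e-06). Both are used outside the nervous system as well.

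Genes of the eye field were BRGC genes too, with the exception of *sev*, which was not called. Of 16 eye disc genes, 9 were tested, of which 8 were higher in the BRGC and 0 in the body (median 2.90), and the other 7, *boss*, *ro*, *gl*, *ey*, *ato*, *danr* and *dan*, are listed for the BRGC alone. *toy* (4, 989725 to 1007922), a Pax6 factor at the top of the eye network that is also active in the brain, had 177, 168, 221 and 187 CPM in the BRGC against 1.01, 1.62, 1.82 and 1.43 CPM in the body. Levels varied little within each tissue, and the difference was 6.91 (SE 0.18, adjusted p = 4.4e-08). *chp*, a photoreceptor surface protein, and *lz*, a Runx factor of eye and blood cells, were enriched at 4.68 and 3.51. *lz* is a member of the hemocyte list too. The wing and leg disc genes, listed as markers of the body, did not follow that side. Of 19 genes, 15 were higher in the BRGC and 2 in the body (median 0.93). *Dll*, *bi* and *bab1*, transcription factors that pattern limbs and are also active in the brain or antenna, were enriched in the BRGC at 2.07, 2.17 and 2.61. *nub*, a POU factor of the wing, was higher in the body at -1.401 (adjusted p = 1.9e-05). *ap*, a factor of the dorsal wing, was also called higher in the body (difference -0.55, adjusted p = 0.014), but it turned to 0.16 with library size alone and was not called without body library 3 or 4 (adjusted p = 0.069 and 0.07). How much disc tissue stayed attached to the dissected brains was not tested.

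Most steroid hormone genes of the ring gland were enriched in the BRGC of *dfr14* larvae, with *sro* as the exception. *nvd*, *spok*, *phm*, *dib* and *sad*, which encode enzymes of ecdysone synthesis in the prothoracic gland, were all enriched in the BRGC. *spok* (3R, 3322810 to 3354486) had 80.2, 90.3, 95.4 and 85.6 CPM in the BRGC against 0.156, 3.02, 0.318 and 9.32 CPM in the body. The BRGC libraries stayed within a narrow range while the body libraries varied widely, with libraries 2 and 4 the highest, and the difference was 6.05 (SE 1.03, adjusted p = 0.00069). *phm* had 57.8, 58.4, 31.8 and 43.3 CPM in the BRGC against 0.468, 0.223, 0.817 and 5.19 CPM in the body, a difference of 5.58 (SE 0.76, adjusted p = 0.00017). Body library 4 was again the highest. *dib* had 6.795, 4.44, 3.96 and 4.35 CPM in the BRGC against 0.07801, 0.279, 0.182 and 0.0752 CPM in the body, a difference of 4.39 (SE 0.38, adjusted p = 1.1e-05). *nvd*, the oxygenase of the first step, had 16.2, 13.5, 16.1 and 13.6 CPM in the BRGC against 0.546, 1.95, 1.14 and 2.71 CPM in the body, a difference of 3.33 (SE 0.41, adjusted p = 0.0001). *sad* had 62.2, 54.6, 31.5 and 48.2 CPM in the BRGC against 7.64, 3.96, 7.13 and 8.12 CPM in the body, a difference of 2.84 (SE 0.28, adjusted p = 2.5e-05). For none of these genes did any body library reach a BRGC library. In controls the differences were 5.598 for *spok*, 4.13 for *phm*, 4.14 for *dib*, 3.77 for *nvd* and 3.76 for *sad*, and for none of the 5 was the change between the genotypes called (adjusted p from 0.36 to 0.94). Without *dfr14* body library 4 the change of *phm* was called (2.38, adjusted p = 0.044). The change concerns the gap between the tissues, not the level in the BRGC. There the study reported lower *nvd*, *spok*, *dib* and *sad* in *dfr14* than in controls. Summed over the 13 tested genes of the prothoracic gland list, the BRGC had 941 to 1084 CPM in controls and 805 to 847 CPM in *dfr14*. The body had 514 to 563 CPM in controls and 627 to 821 CPM in *dfr14*. These sums also hold abundant list members that are not synthesis enzymes, such as *mld*, *vvl*, *Start1* and *Npc1a*. They therefore do not give the level of the enzymes alone.

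*sro*, a short-chain dehydrogenase of the same pathway, went the other way. It had 9.99, 11.2, 7.03 and 7.77 CPM in the BRGC against 38.5, 32.9, 46.6 and 44.1 CPM in the body, a difference of -2.195 (SE 0.18, adjusted p = 9.8e-06). With a difference of this size *sro* was termed enriched in the body of *dfr14* larvae, and the groups did not overlap. Its difference in controls was -1.48 (SE 0.20, adjusted p = 0.00023), and the change between the genotypes of -0.696 (SE 0.28, adjusted p = 0.28) was not called. *shd*, which converts ecdysone to its active form in the periphery, had 2.75, 1.72, 2.45 and 2.71 CPM in the BRGC against 280.4, 295, 198 and 142 CPM in the body, a difference of -6.51 (SE 0.26, adjusted p = 2.4e-07), with every body library far above the BRGC. *vvl* itself had 79.3, 69.8, 90.6 and 91.7 CPM in the BRGC against 77.9, 85.99, 104 and 107 CPM in the body. These ranges overlapped (difference -0.196, SE 0.13, adjusted p = 0.2), and no difference of the mutated gene between the tissues was called, whereas with library size alone it was called higher in the BRGC (0.52, adjusted p = 0.013). Reads per gene do not show the deletion or the readthrough form.

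*mld*, a zinc finger factor that acts with Vvl on *nvd* and *spok*, had 149, 125, 139.6 and 144 CPM in the BRGC against 50.2, 58.2, 68.9 and 54.4 CPM in the body, a difference of 1.25 (SE 0.11, adjusted p = 1.4e-05). It was higher in the BRGC in every library but under the 4-fold mark. Over the whole prothoracic gland list, 7 of 13 tested genes were higher in the BRGC and 3 in the body (median 1.25). The 3 were *sro*, the sterol transfer gene *Start1* and the sterol trafficking gene *Npc1a*. *Start1* had 71.7, 75.4, 61.6 and 60.7 CPM in the BRGC against 122, 148, 149 and 128 CPM in the body, a difference of -1.05 (SE 0.11, adjusted p = 4.2e-05). *Npc1a* had a difference of -0.33 (SE 0.10, adjusted p = 0.019), which turned to 0.38 with library size alone and to 0.06 with quantile normalization. That call also ended without BRGC library 1 or 2 or body library 2, 3 or 4, while the call of *Start1* ended with library size alone (-0.33, adjusted p = 0.07). *tor*, the receptor of the prothoracicotropic hormone, *kni*, a nuclear receptor, and *vvl* were not called.

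**Figure D2:**
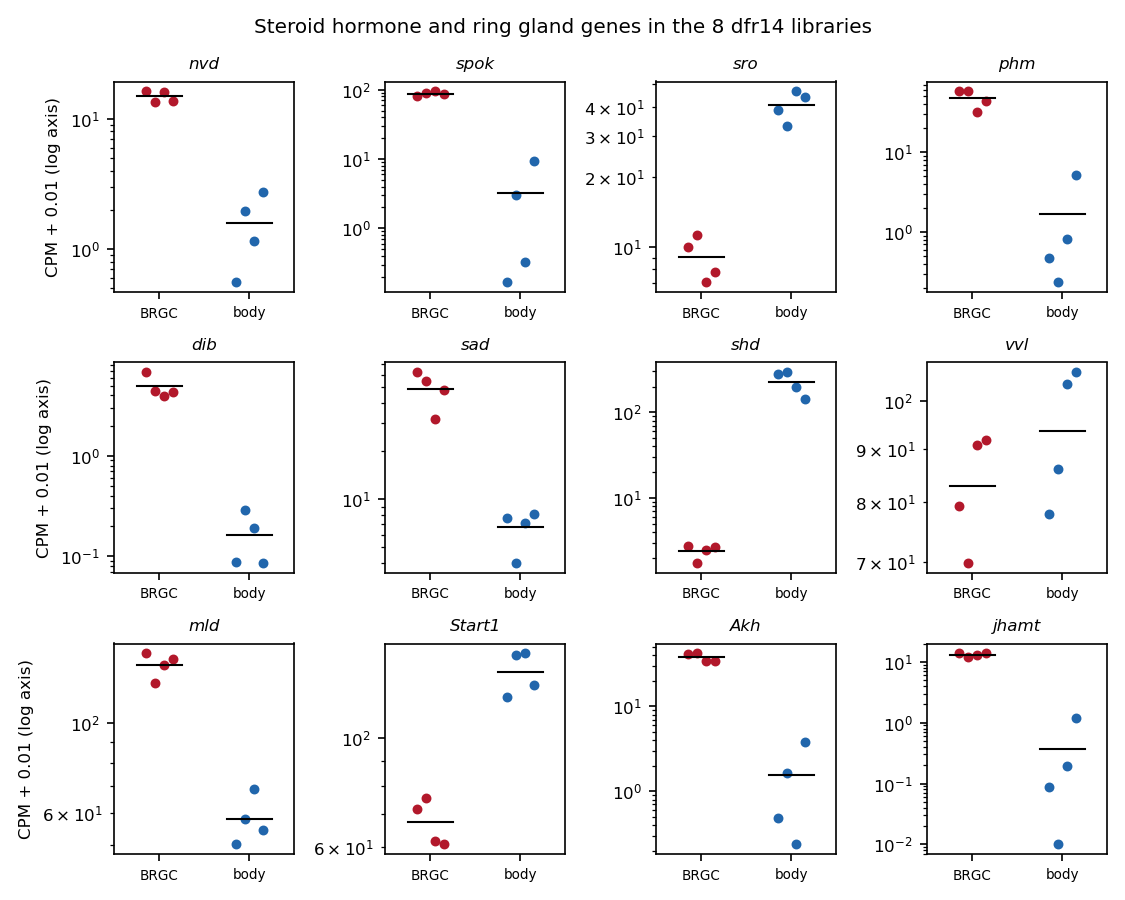
Levels in CPM plus 0.01 are plotted on a log axis in the 4 BRGC (red) and 4 body (blue) libraries of *dfr14* larvae, library 1 to 4 from left to right, with the mean as a bar. *nvd*, *spok*, *phm*, *dib*, *sad*, *mld*, *Akh* and *jhamt* lie higher in the BRGC in every library, *sro*, *shd* and *Start1* higher in the body, and *vvl* overlaps.

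Of 6 listed genes of the corpora cardiaca and corpora allata, the other cells of the ring gland, 2 were higher in the BRGC, 3 were higher in the body and 1 was not called, with a median of -0.52. Both genes on the BRGC side were enriched there. *Akh*, the adipokinetic hormone of the corpora cardiaca, had 41.4, 42.5, 34.4 and 34.04 CPM in the BRGC against 0.468, 1.62, 0.227 and 3.83 CPM in the body, a difference of 5.16 (SE 0.69, adjusted p = 0.00016). *jhamt*, the methyltransferase of juvenile hormone synthesis in the corpora allata, had 13.9, 12.1, 12.9 and 13.8 CPM in the BRGC against 0.07801, 0, 0.182 and 1.203 CPM in the body, a difference of 5.602 (SE 0.71, adjusted p = 0.00012). In both cases body library 4 was the highest of the body and still far below the BRGC. *Lst*, limostatin, a hormone of the adult corpora cardiaca that lowers insulin release, had 6.65, 6.09, 10.2 and 7.21 CPM in the BRGC against 649.9, 868, 479 and 646 CPM in the body. It was enriched in the body (difference -6.46, SE 0.21, adjusted p = 1e-07), the opposite side of its list.

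Of 28 listed genes for neuropeptides and peptide hormones, 22 were tested, with 13 higher in the BRGC (11 enriched), 2 higher in the body and a median of 1.86. *FMRFa* had 11.1, 8.93, 17.6 and 10.8 CPM in the BRGC against 0.546, 0, 0 and 0.0752 CPM in the body, a difference of 6.09 (SE 0.63, adjusted p = 3.3e-05). *Capa* and *Nplp1*, peptides of central neurons, had differences of 5.57 (SE 1.14, adjusted p = 0.0021) and 4.73 (SE 0.48, adjusted p = 3e-05). For *FMRFa* and *Capa* too, body libraries 1 and 4 were above libraries 2 and 3, and *Capa* had 1.95, 0, 0 and 2.48 CPM there. The 2 higher in the body were *Dh31* at -1.22, a peptide made in gut cells as well as neurons, and *ETH* at -0.56, the ecdysis hormone of tracheal Inka cells. *Eh*, *Hug*, *Ilp2*, *Ilp5*, *SIFa* and *Pburs* are listed for the BRGC alone.

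Of 6 tested Hox genes, 2 were higher in the BRGC and 3 in the body. *Scr*, which specifies the labial and anterior thoracic segments, had 90.2, 78.4, 96.7 and 124 CPM in the BRGC against 2.73, 2.96, 6.67 and 3.31 CPM in the body, a difference of 4.66 (SE 0.28, adjusted p = 1.5e-06). *Abd-B*, of the posterior abdomen, had 6.13, 5.89, 10.5 and 10.5 CPM in the BRGC against 33.2, 28.5, 51.3 and 48.6 CPM in the body, a difference of -2.31 (SE 0.27, adjusted p = 6.7e-05). *abd-A* followed at -1.99, while *Dfd* and *pb* are listed for the BRGC alone. Of the 6 tested genes, 2 had a positive and 4 a negative difference, with a median of -0.63. The negative ones thus include some of *lab*, *Antp* and *Ubx*, which are not described singly here. Among the 5 POU-domain genes, *pdm3* and *acj6* were enriched in the BRGC at 2.93 and 2.77, and *nub* and *pdm2* were higher in the body at -1.401 and -1.25. *vvl*, at -0.196, was the only one of the 5 that did not pass. *acj6* in BRGC library 2 (8.37 CPM) lay below the other 3 libraries.

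The 10 genes with the largest differences toward the body, by the rule for named genes, included a lipase and serine proteases of the gut. They were *CG10912*, *CG8997*, *mag*, *Ag5r2*, *Jon65Aiv*, *CG18180*, *CG42500*, *Jon65Aiii*, *CG3868* and *Fst*, from -13.84 to -11.31. *CG10912*, a gene known only by its number, had 0.294, 0.2803, 0.0314 and 0 CPM in the BRGC against 2901, 2521, 3458 and 2747 CPM in the body, a difference of -13.84 (SE 0.47, adjusted p = 1.1e-07). It had 16 reads over the 4 BRGC libraries, so the size of its difference depends on the prior count (it was -14.78 with a prior count of 0.5). *mag* (3L, 20460683 to 20462274), a lipase of the midgut, had 0.257, 0.0801, 0.126 and 0.0743 CPM in the BRGC against 3841, 3238, 509 and 969 CPM in the body, a difference of -12.86 (SE 0.63, adjusted p = 5.6e-07). Body libraries 1 and 2 were several-fold above libraries 3 and 4, and all 4 were far above the BRGC. *Jon65Aiv*, a serine protease of the gut, had 0.918, 6.69, 0.4395 and 0.186 CPM in the BRGC against 10156, 4121, 1593 and 5417 CPM in the body, a difference of -12.11 (SE 0.96, adjusted p = 7.1e-06). BRGC library 2 was the highest of the BRGC for it, as for *Jon65Aiii* (0.698, 7.85, 0.471 and 0.334 CPM) and *CG18180* (0.404, 6.73, 0.157 and 0.0372 CPM). *Fst*, a gene induced by cold, was highest in BRGC library 3 with 9.199 CPM against 0.0372 to 0.331 in the others.

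All 11 tested genes for digestive enzymes were enriched in the body (median -9.98), and another 12 of the list are in the body table alone. Their summed level over the 11 genes was 0.973 to 47.2 CPM in BRGC libraries and 3515 to 21779 CPM in body libraries. *epsilonTry*, a trypsin, had a difference of -11.18 (SE 0.89, adjusted p = 7.4e-06). Trypsin, Jonah and maltase genes lie in clusters of near-identical copies, so the levels of single members are uncertain.

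Genes of the fat body, the larval storage and metabolic organ, were body-enriched. Of 16 tested genes, 14 were higher in the body, 0 in the BRGC and 12 were enriched (median -5.33). *Fbp1*, the receptor for larval serum protein uptake, had 195, 116, 84.99 and 4.83 CPM in the BRGC against 46522, 46512, 66265 and 63907 CPM in the body, a difference of -9.98 (SE 1.01, adjusted p = 2.9e-05). Levels were alike in the 4 body libraries, while the BRGC libraries ran from 4.83 CPM in library 4 to 195 CPM in library 1. *Lsp1beta*, a storage hexamerin, had 8.999, 4.004, 12.4 and 19.1 CPM in the BRGC against 28149, 21115, 3686 and 5372 CPM in the body, a difference of -10.09 (SE 0.73, adjusted p = 4.2e-06). Here body libraries 1 and 2 were several-fold above libraries 3 and 4. *Lsp1gamma*, a near copy, showed the same order, with 29312, 13964, 4110.2 and 4882 CPM. The fat body list summed to 849 to 1117 CPM in the BRGC and 103636 to 176518 CPM in the body.

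Muscle genes were body-enriched as well. Of 19 tested, 16 were higher in the body and 0 in the BRGC, with 14 enriched and a median of -4.79 (with library size alone 14 and 2). *Zasp66*, a protein of the muscle Z-disc, had 13.7, 12.5, 9.105 and 9.36 CPM in the BRGC against 1363, 1404, 2227 and 1453 CPM in the body, a difference of -7.18 (SE 0.20, adjusted p = 4.8e-08). *wupA*, troponin I, had 16.5, 16.5, 18.8 and 17.8 CPM in the BRGC against 1608, 1073, 316 and 270.2 CPM in the body, a difference of -5.17 (SE 0.55, adjusted p = 3.8e-05), and *Prm*, paramyosin, a difference of -5.61 (SE 0.39, adjusted p = 3.3e-06). Libraries 1 and 2 were the highest for *wupA* and *Prm*, whereas *Zasp66* was highest in library 3. *Mhc*, the myosin heavy chain that defines muscle, had 11.2, 5.61, 24.8 and 14.2 CPM in the BRGC against 2101, 535, 26.1 and 18.04 CPM in the body. Body libraries 1 and 2 were far above libraries 3 and 4, which lay close to the BRGC. *Mhc* passed narrowly, at -3.65 (SE 1.45, adjusted p = 0.048), and its call ended without any one BRGC library and without body library 1 or 2 (adjusted p up to 0.12). *sls* and *Msp300*, giant proteins with forms outside muscle, had differences of 0.25 and 0.15 and were not called.

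All 7 tested Malpighian tubule genes were higher in the body and 4 were enriched (median -2.02). *Oatp58Da*, an organic anion transporter of the tubule, had 0, 0, 8.88 and 0.149 CPM in the BRGC against 67.1, 45.01, 39.4 and 45.7 CPM in the body, a difference of -7.08 (SE 1.33, adjusted p = 0.0012). It was at 0 in BRGC libraries 1 and 2 and at 8.88 CPM in library 3. *ZnT35C*, a zinc transporter, had a difference of -5.92 (SE 0.25, adjusted p = 3.1e-07), and *Irk2*, a potassium channel, -3.09 (SE 0.27, adjusted p = 1.4e-05). *Uro*, *salt* and *Oatp58Db* are in the body table alone. Among 9 tested cuticle genes, 4 were enriched in the body and 1 in the BRGC. *Lcp4*, a larval cuticle protein, had 9.07, 0.4405, 0.722 and 0.483 CPM in the BRGC against 10931, 2924, 906 and 1692 CPM in the body, a difference of -11.097 (SE 1.04, adjusted p = 1.9e-05), and its neighbours *Lcp1* and *Lcp2* -10.81 and -10.41. The 1 enriched in the BRGC was *Cpr64Ac*, at 2.02. Cuticle genes summed to 28.9 to 38.7 CPM in the BRGC and 2634 to 15110.2 CPM in the body, with library 1 the highest body library for *Lcp4*.

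**Figure D3:**
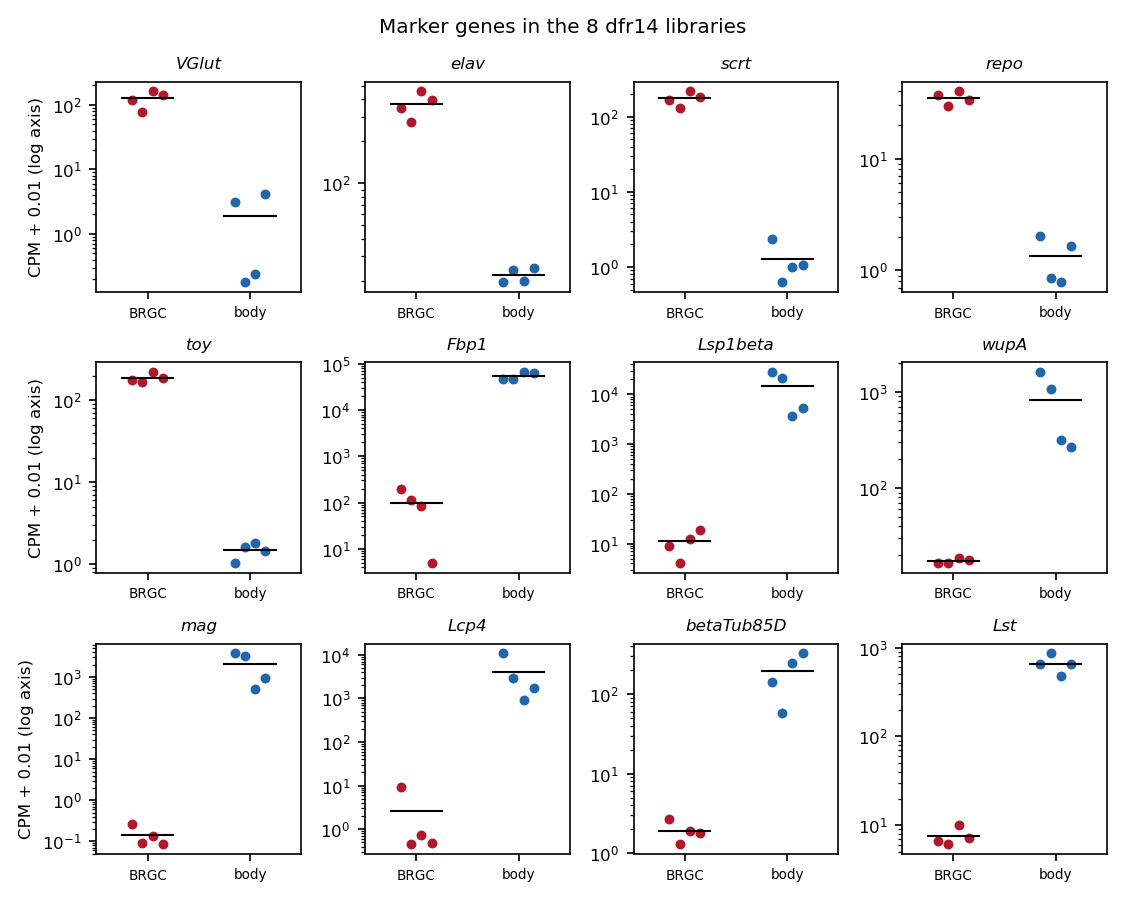
Levels in CPM plus 0.01 are plotted on a log axis in the 4 BRGC (red) and 4 body (blue) libraries of *dfr14* larvae, library 1 to 4 from left to right, with the mean as a bar. *VGlut*, *elav*, *scrt*, *repo* and *toy* lie higher in every BRGC library and *Fbp1*, *Lsp1beta*, *wupA*, *mag*, *Lcp4*, *betaTub85D* and *Lst* higher in every body library. Body libraries 1 and 2 lie above 3 and 4 for *Lsp1beta*, *wupA* and *mag*.

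Blood cell genes differed less. Of 17 tested hemocyte genes, 9 were higher in the body, 1 in the BRGC and 7 were not called (median -1.30), and with library size alone 5 were higher in the body and 2 in the BRGC. *crq*, a scavenger receptor of macrophages, had 127, 127, 144 and 137 CPM in the BRGC against 498, 756, 549.7 and 576 CPM in the body, a difference of -2.16 (SE 0.13, adjusted p = 1.6e-06), and was the only member enriched in the body. *NimC1*, a phagocytosis receptor, had 52.6, 33.04, 34.4 and 44.8 CPM in the BRGC against 99.3, 384, 84.1 and 117 CPM in the body, a difference of -1.81 (SE 0.44, adjusted p = 0.0054), with body library 2 far above the others. *PPO2*, a prophenoloxidase of crystal cells, had 53.3, 43.8, 74.7 and 54.03 CPM in the BRGC against 657, 409, 62.7 and 84.4 CPM in the body. The ranges overlapped, since body libraries 3 and 4 were close to the BRGC (difference -1.83, SE 0.72, adjusted p = 0.046), and the call ended without any one BRGC library and without body library 1 or 2 (adjusted p up to 0.12). *Hml*, a marker of most larval hemocytes, had a difference of -0.42 (adjusted p = 0.49). Summed over the hemocyte list, levels were 1207 to 1671 CPM in the BRGC against 2258 to 5818 CPM in the body. The list holds genes that are also used outside blood cells, such as *lz*, so these sums are not levels of hemocytes alone.

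For antimicrobial peptides and humoral immunity, 13 of 17 tested genes were higher in the body and 1 in the BRGC (median -1.75), and 10 more are in the body table alone. *Drs*, drosomycin, had 0.551, 0.2803, 0.816 and 0.929 CPM in the BRGC against 19.6, 27.03, 49.9 and 89.5 CPM in the body, a difference of -5.87 (SE 0.50, adjusted p = 1.1e-05). *DptA* and *DptB*, diptericins, had differences of -5.003 (SE 1.24, adjusted p = 0.0058) and -4.76 (SE 0.59, adjusted p = 0.0001). *Tl*, the Toll receptor, was the one higher in the BRGC, at 0.63. Tracheal genes mostly did not differ beyond their error, with 2 of 13 higher in the BRGC, 1 in the body and 10 not called (median 0.36; with library size alone 10 were higher in the BRGC and 0 in the body). *btl*, the FGF receptor that guides tracheal cells, was the one higher in the body, at -1.103 (SE 0.21, adjusted p = 0.0014), which ended with library size alone (difference -0.39, adjusted p = 0.16).

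Testis genes were mostly higher in the body. Of the 30 listed, 23 are in the body table alone, and of 7 tested, 6 were higher in the body. *betaTub85D*, the tubulin of spermatogenesis, had 2.64, 1.28, 1.92 and 1.78 CPM in the BRGC against 142, 57.8, 248 and 326 CPM in the body, a difference of -6.39 (SE 0.49, adjusted p = 6.2e-06). *Tektin-C*, which builds filaments of sperm tails, had 0.1102, 0.04004, 0.0314 and 0.111 CPM in the BRGC against 9.59, 3.13, 12.03 and 18.3 CPM in the body, a difference of -5.86 (SE 0.53, adjusted p = 1.5e-05). *bgcn*, which ends germ cell division with *bam*, had a difference of -3.01 (SE 0.32, adjusted p = 3.9e-05). Body library 2 was the lowest for all 3, and it also had the fewest Y-linked reads. The share of males in each pool was not tested. Of the salivary gland list, 9 of 13 listed genes are in the body table alone and 4 were tested. The glue genes *Sgs3*, *Sgs5*, *Sgs7* and *Sgs8*, which are in the body table alone, had at most 0.312 CPM in any *dfr14* body library, and *Sgs4* and *Eig71Ee* had at most 0.331 CPM in any *dfr14* library of either tissue, with no call (adjusted p = 0.39 and 0.92). *fkh* and *sage*, transcription factors of the gland, differed in direction. *fkh*, which also acts in the gut and the prothoracic gland, was higher in the body at -1.19. *sage* was enriched in the BRGC at 2.11, with 3.78, 4.93, 6.31 and 6.35 CPM there.

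Genes of the ecdysone response did not share a side. Of 20 tested, 4 were higher in the BRGC, 6 in the body and 10 were not called (median 0.17). *ImpE1*, an ecdysone-induced gene of discs and brain, had 371, 349.5, 380.5 and 321 CPM in the BRGC against 17.6, 26.7, 139 and 116 CPM in the body, a difference of 2.73 (SE 0.62, adjusted p = 0.0037). *Eip93F*, a factor of the prepupal response, had 69.1, 51.3, 70.7 and 68.1 CPM in the BRGC against 4.06, 8.88, 20.9 and 50.1 CPM in the body, a difference of 2.17 (SE 0.65, adjusted p = 0.015). In the body both genes were highest in libraries 3 and 4, which for *Eip93F* came close to the lowest BRGC library. The receptor genes *EcR* and *usp* were higher in the body at -0.60 and -0.46. With library size alone, 9 were higher in the BRGC and 3 in the body. *br*, a zinc finger factor of the larval-to-pupal transition, carries different identifiers in the tables and was not joined.

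Genes of DNA replication and the cell cycle were higher in the BRGC by a small factor. Of 23 tested, 21 were higher in the BRGC and 0 in the body, with a median of 1.34 and 1 enriched. *stg*, the Cdc25 phosphatase that triggers mitosis, had 112, 107, 144 and 131 CPM in the BRGC against 19.6, 30.3, 21.1 and 20.1 CPM in the body, a difference of 2.43 (SE 0.16, adjusted p = 2.8e-06). *Mcm7* and *Mcm3*, helicase subunits, had differences of 1.83 (SE 0.15, adjusted p = 7.6e-06) and 1.69 (SE 0.11, adjusted p = 2.8e-06). All scalings kept this side, with medians from 1.32 to 2.05. Proteasome genes were all on the other side, with 33 of 33 higher in the body (median -1.06), among them *Rpn6*, of the regulatory lid, at -1.44 (SE 0.12, adjusted p = 1e-05). With library size alone 9 of the 33 were higher in the body and 0 in the BRGC (median -0.35). The largest differences of that list were those of the testis-type copies *Rpt6R* and *Rpt3R*, at -4.399 and -1.81.

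Ribosomal protein genes had a median of -0.23, with 2 of 86 higher in the BRGC and 6 in the body. The side flips with the scaling, since 47 were higher in the BRGC and 2 in the body with library size alone (median 0.49). The paralogs *RpL22-like* and *RpS19b*, at -4.84 and -4.15, were enriched in the body, and *RpS5b*, at -1.64, lost its call without BRGC library 1, 2 or 3 and without body library 1, 3 or 4 (adjusted p up to 0.097). Nuclear genes of the respiratory chain gave 0 of 61 higher in the BRGC and 11 higher in the body (median -0.41), and with library size alone 10 and 1. Mitochondrially encoded transcripts had a median of -0.50, and 2 of 21 were called, *mt:CoIII* and *mt:CoII*, both higher in the body. The side of this list also flips with the scaling, since 4 were higher in the BRGC and 0 in the body with library size alone (median 0.11), and 3 and 0 with quantile normalization (median 0.28). *mt:CoIII* had 5574, 6789, 11951 and 9875 CPM in the BRGC against 13627, 20366, 14994 and 15181 CPM in the body, a difference of -0.98 (SE 0.32, adjusted p = 0.022). It turned to 0.78 with quantile normalization and *mt:CoII* to 0.65, and neither call held without BRGC library 1 or 2 or body library 2 or 3 (for *mt:CoII* also body library 4), with adjusted p up to 0.076 and 0.12.

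Genes listed for only 1 tissue extend these groups. The tables list genes that exceed 1 CPM in at least 1 library of the tissue, so a gene missing from a table may still have had reads there, and no difference was computed. The BRGC table alone holds 475 genes, of which 58 (12.2%) had a mean of at least 10 CPM in *dfr14*. The body table alone holds 3253, of which 1187 (36.5%) did and 139 reached 100 CPM. The most abundant in the BRGC, *br* aside, were *CG34377*, *CanA-14F*, *ey* and *CG9395*. *ey* (4, 697689 to 721173), the other Pax6 factor, had 58.4, 45.7, 59.7 and 53.4 CPM. In the body the 5 most abundant were *CG31789*, *CG9682*, *CG7953*, *CG11912* and *CG6933*, known only by their numbers. *CG31789* (2L, 18605928 to 18606684) had 4078, 3985, 1277 and 1785 CPM, with libraries 1 and 2 above libraries 3 and 4.

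Most tissue-enriched genes of control larvae were enriched in *dfr14* larvae too. Controls had 629 genes enriched in the BRGC (6.8%) and 1216 in the body (13.1%). Without control body library 4, which had no Y-linked reads, these counts were 608 and 1297. Of the 629, 581 (92.4%) held their enrichment in *dfr14*, 44 were still called but under 4-fold, 4 were not called and 0 were called the other way. Of the 1216, 1026 (84.4%) held, 137 were called under 4-fold, 53 were not called and 0 turned. In the other direction, 87.6% of the *dfr14* BRGC-enriched genes and 84.2% of the body-enriched genes were enriched in controls. Across the 9248 genes the differences of both genotypes had a Pearson r of 0.952, given as a description, since genes are not independent and each tissue shares its scaling. For the 581 genes enriched in the BRGC of both genotypes the median difference was 4.02 in *dfr14* and 3.66 in controls, and 414 had the larger one in *dfr14*. For the 1026 of the body the medians were -4.18 and -4.38, and 502 were larger in *dfr14*. Of the 20 neuron genes, 17 had the larger difference in *dfr14*. The change between the genotypes was called for 0 of the 20, where the share over all genes was 1.45%, so 20 genes are too few to tell these apart. With array weights it was called for *Rdl* (2.65, adjusted p = 0.016) and *VGlut* (3.06, adjusted p = 0.037), where 604 genes in all were called.

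**Figure D4:**
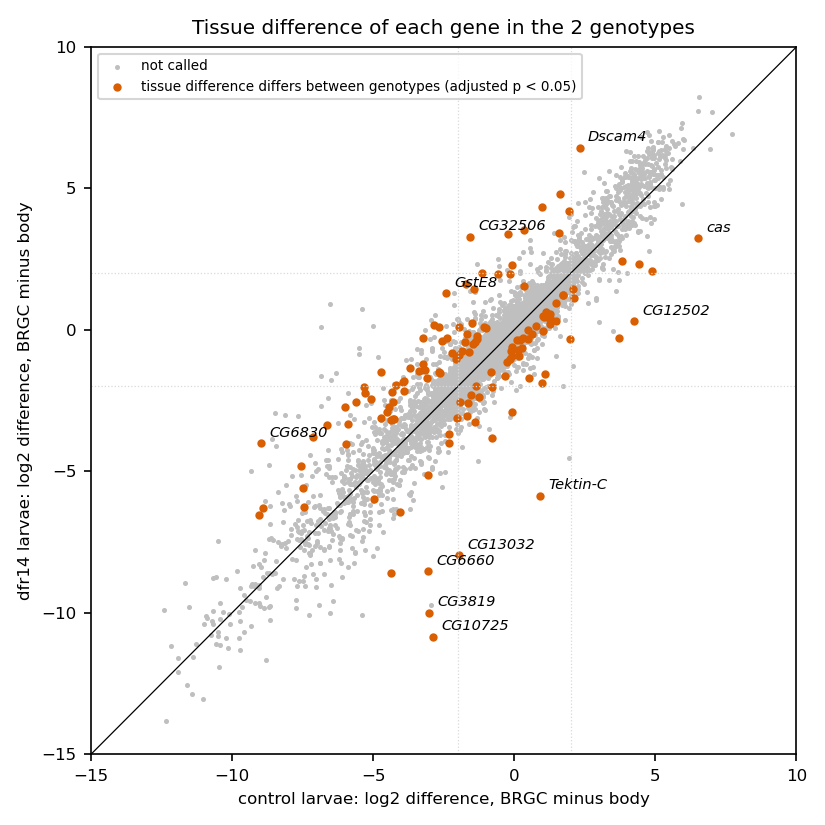
The log2 difference between BRGC and body is plotted for all 9248 tested genes, in controls on the x axis and in *dfr14* larvae on the y axis, with the diagonal of equal differences. Coloured points are the 134 genes whose difference changed between the genotypes in limma at an adjusted p under 0.05, and 8384 of the genes have the same sign on both axes.

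A gene that crosses the line of 4-fold need not have changed, so the change of the tissue difference between the genotypes (*dfr14* minus control) was tested over all 16 libraries. It was called for 134 genes (1.45%), 71 of them more positive in *dfr14* and 63 more negative. Among the genes that lost enrichment, the change was called for 4 of the BRGC and 19 of the body, and among those that gained it, for 9 of the BRGC and 11 of the body. Of the genes that lost it, 2 of the 4 and 13 of the 19 were still called on the same side, under 4-fold. The remaining 2 and 6 were not called. The 4 BRGC genes were *CG12502*, *CG10814*, *CG7971* and *CG4300*. With any one of the 16 libraries left out in turn, 54 of the 134 genes were called each time, among them 15 of the 23 that lost and 11 of the 20 that gained enrichment. Without control body library 4, 145 genes were called, 108 more positive and 37 more negative, and 68 were called with limma's voom weights.

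Among the genes that lost body enrichment were *ea*, *Drip*, *PGRP-LC* and *Osi17*, of which *PGRP-LC* is the one listed immunity gene of 17 tested with a called change. *ea*, the Easter protease that activates a Toll ligand in the embryo, had 7.86, 7.61, 8.67 and 8.44 CPM in the *dfr14* BRGC and 15.4, 11.7, 8.4004 and 7.82 CPM in the *dfr14* body, which overlapped. Controls had 2.15, 1.32, 0.892 and 1.53 CPM in the BRGC and 5.07, 8.74, 14.5 and 8.92 CPM in the body. The tissue difference was -0.38 in *dfr14* and -2.56 in controls, a change of 2.2002 (SE 0.44, adjusted p = 0.023), and the call ended without *dfr14* BRGC library 3 or 4 (adjusted p = 0.055 and 0.06). *Drip*, an aquaporin of the Malpighian tubule, had 19.2, 31.2, 26.2 and 31.1 CPM in the *dfr14* BRGC against 5.05, 8.796, 4.31 and 4.03 CPM in the control BRGC. Its body levels overlapped between the genotypes, and the difference moved from -4.18 to -1.95, a change of 2.25 (SE 0.32, adjusted p = 0.0032). In *dfr14* it was still called higher in the body, at -2.03 to -1.79 with 1 library left out. *PGRP-LC*, a receptor for bacterial peptidoglycan, moved in the same way from -2.07 to -1.03 (adjusted p = 0.0097). *Osi17*, of the Osiris family of insect epithelial genes, had 0.808, 1.001, 0.565 and 0.743 CPM in the *dfr14* BRGC and 0.624, 0.893, 1.09 and 0.301 CPM in the *dfr14* body, against 7.32, 3.97, 3.29 and 4.27 CPM in the control body. Here it was the body level that was low, and the difference changed by 3.03 (SE 0.55, adjusted p = 0.013). With quantile normalization the changes of *Osi17* and *ea* were not called (2.79, adjusted p = 0.094, and 1.69, adjusted p = 0.16).

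*GstE8*, a glutathione transferase, and *Mco1*, a multicopper oxidase, lost body enrichment too. *GstE8* had 6.46, 6.09, 7.06 and 6.28 CPM in the *dfr14* BRGC and 6.32, 3.85, 2.13 and 0.752 CPM in the *dfr14* body, a difference of 1.298 (SE 0.56, adjusted p = 0.063), against -2.43 in controls. The *dfr14* difference was called higher in the BRGC with library size alone (1.99, adjusted p = 0.0054), quantile normalization, voom weights and array weights, and without *dfr14* body library 1 or 2 (adjusted p from 0.01 to 0.045 in these 5). *Mco1* had a difference of -1.48 in *dfr14* and -4.73 in controls (change 3.26, SE 0.63, adjusted p = 0.018). *mt:srRNA*, the small mitochondrial ribosomal RNA, had 531, 805, 2018 and 1536 CPM in the *dfr14* BRGC and 968, 1825, 1029.7 and 1470.1 CPM in the *dfr14* body. Controls had 4.36, 4.99, 3.26 and 3.16 CPM in the BRGC and 37.7, 29.8, 32.2 and 53.7 CPM in the body, so that the level differed between the genotypes in both tissues and the tissue difference of controls (-3.24) was not called in *dfr14* (-0.28, adjusted p = 0.57). *mt:tRNA:Lys-CTT*, a mitochondrial transfer RNA, moved from -2.68 to 0.11 (adjusted p = 0.018, and 0.053 without *dfr14* BRGC library 4). All 21 tested mitochondrial transcripts had a higher mean in the *dfr14* than in the control BRGC and 19 in the body, where the shares over all tested genes were 43.5% and 50.9%. *CG12502* lost BRGC enrichment, with 17.8, 19.4, 11.2 and 7.82 CPM in the *dfr14* body against 0.513, 0.375, 0.335 and 0.475 CPM in the control body, a change of -3.901 (SE 0.39, adjusted p = 0.00016).

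*tipE*, *DAT* and *Oamb* gained BRGC enrichment, and each had a lower mean in the *dfr14* than in the control body. *tipE*, an auxiliary subunit of sodium channels, had 13.2, 10.9, 17.6 and 14.7 CPM in the *dfr14* BRGC and 1.09, 1.17, 1.18 and 1.28 CPM in the *dfr14* body. In controls it had 39.4, 39.1, 41.1 and 37.2 CPM in the BRGC and 14.7, 14.3, 14.1 and 9.82 CPM in the body, higher in both tissues. The difference was 3.44 in *dfr14* and 1.58 in controls, a change of 1.88 (SE 0.22, adjusted p = 0.00058). *DAT*, the dopamine transporter, had 9.697, 8.77, 9.86 and 9.88 CPM in the *dfr14* BRGC and 0.234, 0.112, 0.182 and 0.677 CPM in the *dfr14* body, against 3.85, 1.23, 7.42 and 2.85 CPM in the control body. Its difference changed by 3.22 (SE 0.64, adjusted p = 0.022), a call that ended without control BRGC library 4 or *dfr14* BRGC library 3 or 4 (adjusted p from 0.051 to 0.057). *Oamb*, an octopamine receptor, changed by 2.31 (SE 0.50, adjusted p = 0.038), and this call ended in 10 of 16 cases with 1 library left out. The change was called for 0 of the 20 listed neuron genes, which do not include these 3, against 1.45% of all genes. Over those 20 the summed level in the body was 393 to 503 CPM in controls and 615 to 649 CPM in *dfr14*, and 5 of the 20 had the higher mean in *dfr14* bodies. The part of nervous tissue left in the bodies in these changes was not tested.

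*Cpr64Ac*, a cuticle protein gene, had 14.9, 18.8, 22.1 and 20.4 CPM in the *dfr14* BRGC and 4.45, 3.13, 4.99 and 5.86 CPM in the *dfr14* body. It had 0 reads in all control BRGC libraries and at most 0.268 CPM in the control body, so both tissues were higher in *dfr14*. The difference was 2.02 (SE 0.22, adjusted p = 4e-05). *CG14277*, known only by its number, showed 12.5, 11.4, 8.48 and 13.97 CPM in the *dfr14* BRGC and 1.09, 0.335, 1.45 and 1.05 CPM in the *dfr14* body, against 0.615, 0.543, 0.466 and 0.2603 CPM in the control BRGC. Its difference changed by 3.24 (SE 0.54, adjusted p = 0.0093). *CG32506* (chromosome X, 20449331 to 20467065) was the one gene enriched in the *dfr14* BRGC and called higher in the body of controls. It had 9.55, 5.09, 12.5 and 10.7 CPM in the *dfr14* BRGC and 1.48, 0.782, 0.454 and 0.827 CPM in the *dfr14* body, and controls had 11.3, 7.301, 7.84 and 11.03 CPM in the BRGC and 41.005, 23.4, 15.7 and 36.6 CPM in the body. The BRGC levels overlapped between the genotypes and the body levels did not.

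*Tektin-C* (3L, 5794405 to 5796543) was enriched in the *dfr14* body and called higher in the BRGC of controls (0.92, SE 0.33, adjusted p = 0.033). The control call ended in 5 of 8 cases with 1 control library left out, with differences from 0.64 to 1.13 and adjusted p up to 0.085. Against 0.1102, 0.04004, 0.0314 and 0.111 CPM in the *dfr14* BRGC, the control BRGC had 89.98, 58.1, 63.6 and 76.7 CPM. The control body had 46.8, 63.7, 31.9 and 20.6 CPM, and the change was -6.81 (SE 0.64, adjusted p = 9.3e-05). *CG13032*, at 0.1102, 0, 0.0628 and 0 CPM in the *dfr14* BRGC and 8.796, 8.66, 8.96 and 9.37 CPM in the control BRGC, was also lower there in *dfr14*, with a change of -6.03 (SE 1.11, adjusted p = 0.014). Its control difference of -1.97 was not called (adjusted p = 0.084), whereas without control body library 4 it was called (-2.997, adjusted p = 6.6e-05). *Glt*, glutactin, a basement membrane protein, gained body enrichment, from -1.41 in controls to -3.26 (change -1.83, SE 0.33, adjusted p = 0.013). Summed over the 7 tested testis genes, *Tektin-C* included, the BRGC had 81.2 to 113 CPM in controls and 25.9 to 30.01 CPM in *dfr14*. The fall was that of *Tektin-C*, since the other 6 genes summed to 20.2 to 23.1 CPM in the control BRGC and 25.9 to 29.98 CPM in the *dfr14* BRGC.

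Most of the largest changes left the side of a gene as it was. *Dscam4*, an immunoglobulin adhesion protein of neurons, was enriched in the BRGC of both genotypes, at 6.44 in *dfr14* and 2.32 in controls. Its body levels were 1.72, 0.726, 0.817 and 1.58 CPM in *dfr14* and 50.95, 41.9, 49.9 and 44.4 CPM in controls, and the change was 4.15 (SE 0.32, adjusted p = 1.4e-05). *Itgbn*, the beta-nu integrin, had 8.52, 13.5, 13.03 and 15.2 CPM in the *dfr14* BRGC and 0.974, 1.12, 0.698 and 0.521 CPM in the control BRGC, and its body enrichment moved from -6.63 to -3.36. *Cyp309a1*, a cytochrome P450, moved from -7.13 to -3.805, *CG6830* from -8.97 to -4.02, *CG18557* from -5.33 to -2.01 and *CG8850* from -6.004 to -2.74. In each of these 5 genes the BRGC level was higher in *dfr14* than in any control BRGC library.

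In the other direction, body enrichment was larger in *dfr14* for *CG10725* (-10.84 against -2.89 in controls), *CG3819* (-9.998 against -3.01), *CG6660* (-8.53 against -3.06), and the cytochrome P450 genes *Cyp304a1* (-8.59 against -4.38) and *Cyp317a1* (-6.46 against -4.05). *CG10725* had 419, 365, 183 and 143 CPM in the *dfr14* body and 0.834, 0.912, 1.23 and 1.69 CPM in the control body, which did not overlap. BRGC enrichment was smaller in *dfr14* for *cas*, a zinc finger factor of neuroblasts (3.23 against 6.52), and *Syt4*, a synaptotagmin (2.08 against 4.89). The calls of *Syt4*, *Cyp317a1*, *CG8850* and *cas* ended in 13, 8, 7 and 6 of 16 cases with 1 library left out, with adjusted p of at most 0.094. With voom weights the changes of *CG6830*, *CG10725*, *CG3819*, *CG13032*, *CG14277*, *Cyp304a1*, *Cyp317a1*, *Mco1*, *CG8850*, *cas*, *Oamb*, *mt:srRNA* and *mt:tRNA:Lys-CTT* were not called (adjusted p from 0.052 to 0.52). With quantile normalization those of *CG8850*, *Mco1*, *CG14277*, *Syt4*, *Oamb* and *mt:tRNA:Lys-CTT* were not called (adjusted p from 0.053 to 0.14).

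**Figure D5:**
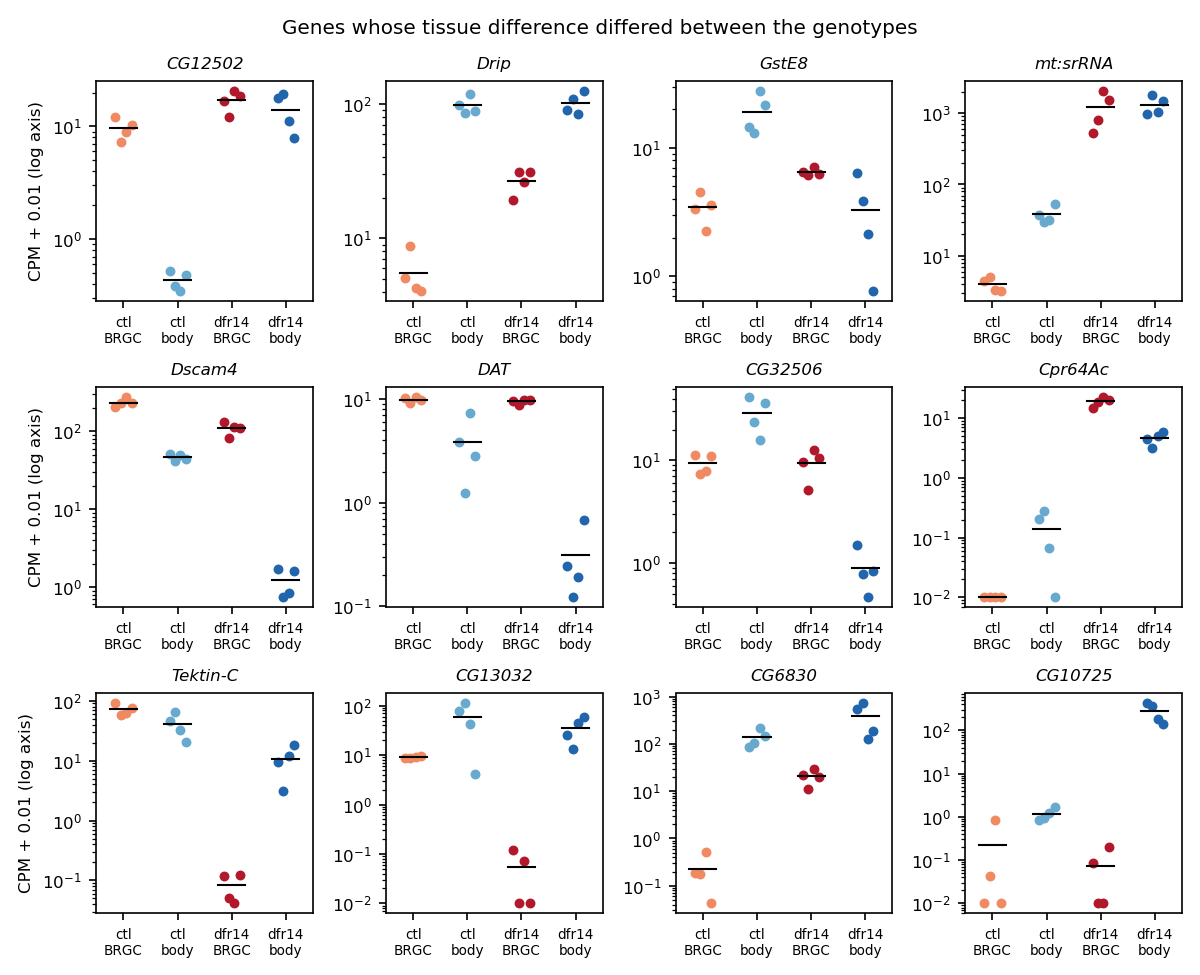
Levels in CPM plus 0.01 of 12 genes whose tissue difference changed between the genotypes are plotted on a log axis, in control (ctl, light) and *dfr14* (dark) BRGC (red) and body (blue) libraries, library 1 to 4 from left to right, with the mean as a bar. The *dfr14* BRGC stands apart from the control BRGC for *Drip*, *mt:srRNA*, *Cpr64Ac*, *Tektin-C*, *CG13032* and *CG6830*, and the *dfr14* body from the control body for *CG12502*, *GstE8*, *Dscam4*, *DAT*, *CG32506* and *CG10725*. The bodies are apart for *mt:srRNA*, *Cpr64Ac* and *Tektin-C* too, and the BRGCs for *GstE8* and, narrowly, *CG12502*.

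Levels of marker genes of other tissues were also set against the genotype. Over all tested genes, 43.5% had the higher mean in *dfr14* in the BRGC and 50.9% in the body. In the BRGC, 6 of 7 Malpighian tubule genes had the higher mean in *dfr14*, with list sums of 53.9 to 78.3 CPM in controls and 81.3 to 127 CPM in *dfr14*. The same held for 17 of 19 muscle genes (530.3 to 669 and 783 to 959 CPM) and 15 of 17 immunity genes (320.3 to 398 and 395 to 488 CPM). It held for 10 of 13 tracheal, 8 of 11 digestive, 9 of 17 hemocyte, 4 of 9 cuticle and 3 of 7 testis genes. Only 4 of 16 fat body, 5 of 19 disc and 1 of 4 salivary gland genes were higher in *dfr14*. The fat body sums overlapped, at 888 to 7380 CPM in controls and 849 to 1117 CPM in *dfr14*. In the body, 17 of 17 hemocyte genes had the higher mean in *dfr14*, with sums of 1133 to 2835 CPM in controls and 2258 to 5818 CPM in *dfr14*. So did 9 of 11 digestive, 6 of 7 Malpighian tubule, 11 of 16 fat body and 11 of 19 muscle genes. Counts were 5 of 9 for cuticle, 9 of 17 for immunity, 6 of 19 for discs, 4 of 13 for trachea, 0 of 7 for testis and 0 of 4 for salivary gland. Between the genotypes, the ranges of the immunity sums in the BRGC and of the hemocyte sums in the body overlapped. Those of the Malpighian tubule and muscle sums did not overlap in the BRGC, but they did in the body. There the tubule genes summed to 334 to 435 CPM in controls and 324 to 514 CPM in *dfr14*. Muscle genes summed to 6961 to 18210 CPM in the control body and 4434 to 25563 CPM in the *dfr14* body. The part of these tissues in the genes that lost or gained enrichment was not tested.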

How the data were processed

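Poly-A RNA of BRGCs and bodies of wandering *dfr14* and control larvae had been sequenced by the authors (4 libraries per group). Per the labels and the study's methods, the authors used Trim Galore on the reads, STAR for alignment to BDGP6, featureCounts for gene counts and edgeR's TMM for scaling (versions and strand setting are not given in the sources used here). The deposited values are log2 CPM, each tissue scaled alone. They convert to whole reads (100% of values within 0.001 of a whole number), and these were used, 17050491 to 30118366 per library. Columns headed X1 were taken as control and X2 as *dfr14*, since a column of each table names the mean of the X1 columns as wild type. A second block of 16 columns and the authors' fold changes and p-values were not used.

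The 9256 genes listed for both tissues were joined. Those with at least 10 reads in at least 4 of 16 libraries (9248) were rescaled together by TMM and tested as log2 CPM with a prior count of 2 by limma 3.58.1 with an intensity trend (R 4.3.3, two-sided, Benjamini-Hochberg adjustment over all genes): 8 libraries for a tissue difference, 16 for its change between the genotypes. Because of the prior count, log2 differences of low genes are understated. The method was tested on simulated data in which only a small part of the genes differed between groups. Most genes differed between the tissues here, so that run does not test the scaling. No replicate pair was within sampling noise (chi-square per gene of at least 21.1). The Ensembl annotation of the Release 6 plus ISO1 MT assembly held 9096 of the tested genes. Alternatives were library size alone, median-of-ratios and quantile scaling, voom weights, no low-count filter, all genes of either table, a prior count of 0.5, a difference of 1, each library left out and, chosen after seeing the data, array weights. Counting error limits levels of a few reads.

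Members and lists were chosen with earlier results of these data known. Named genes are, for each side, the 10 largest enriched differences at 10 CPM or more without overlap, up to 3 called members per list toward its side and any enriched on the other, the 10 largest changes between the genotypes, genes named by the study, and the 5 most abundant genes of 1 table. Other genes (among them *elav*, *repo*, *dpn*, *Mhc*, *Syt1*, *Syx1A*, *Start1*, *Npc1a*, *Drip*, *ea*, *PGRP-LC*, *Osi17*, *mt:srRNA*, *mt:tRNA:Lys-CTT*, *tipE*, *Oamb*, *DAT*, *Glt* and further list members) were chosen after their values were seen.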

Additional observations from a re-analysis of the deposited data

Results flagged for a closer look

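In 6 of 154 groups of 4 libraries, 1 library lay apart from the other 3 by Dixon's criterion, where chance gives about 1 in 20. In the *dfr14* BRGC these were *lz* (15.82 CPM), *acj6* (8.369 CPM) and *Eip93F* (51.26 CPM), and in the *dfr14* body *Zasp66* (2227 CPM), *NimC1* (384.4 CPM) and *stg* (30.27 CPM).

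The tissue difference (log2, BRGC minus body) changed between *dfr14* and control larvae in limma, at an adjusted p under 0.05, for the named genes that follow, each with 4 libraries per group. It was more positive in *dfr14* by 4.949 for *CG6830*, 4.883 for *CG32506*, 4.149 for *Dscam4*, 3.754 for *GstE8*, 3.317 for *CG18557*, 3.306 for *Cyp309a1*, 3.29 for *Itgbn*, 3.268 for *CG8850*, 3.26 for *Mco1* and 3.243 for *CG14277*. Of these genes, *CG32506*, *GstE8*, *Mco1* and *CG14277* crossed the 4-fold line. Among further genes that crossed it, the difference was more positive by 3.166 for *Cpr64Ac*, 3.222 for *DAT*, 2.308 for *Oamb*, 1.882 for *tipE*, 2.248 for *Drip*, 2.2 for *ea*, 3.035 for *Osi17*, 1.067 for *PGRP-LC*, 2.99 for *mt:srRNA* and 2.796 for *mt:tRNA:Lys-CTT*. The value for *Cpr64Ac* depends on the prior count, since the control BRGC held no read of it. More negative changes were -8.03 for *CG10725*, -7.013 for *CG3819*, -6.806 for *Tektin-C*, -6.029 for *CG13032*, -5.51 for *CG6660*, -4.23 for *Cyp304a1*, -3.901 for *CG12502*, -3.257 for *cas*, -2.789 for *Syt4* and -2.407 for *Cyp317a1*, and further -1.833 for *Glt*, -0.8857 for *Start1* and -0.7805 for *Npc1a*. The change for *Start1* was not called in 9 of 16 cases with 1 library left out and that for *Npc1a* in 5 (highest adjusted p = 0.12 and 0.085).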

How the results depend on the processing

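No paired analysis was possible because the columns carry no replicate numbers. In *dfr14*, 1074 genes were enriched in the BRGC with library size alone (1007 in controls). With all genes of either table, absent ones at 0 reads, 9859 genes were called, 1089 enriched in the BRGC and 4108 in the body (controls 9768, 1046 and 4158), since genes absent from a table then count as different. At a log2 difference of 1 there were 1566 and 2083 (controls 1811 and 2019). Leaving out 1 library at a time gave 5955 to 6507 called genes, with 640 to 708 enriched in the BRGC and 1168 to 1212 in the body, and 90.46 to 93.32% and 82.15 to 85.06% of the control-enriched genes held. The change between the genotypes was less stable. Its 134 calls (71 and 63) became 604 with array weights (342 more positive, 262 more negative), 300 with all genes of either table (108 and 192) and 68 with voom weights (33 and 35). More negative calls were 25 with library size alone and 38 with median-of-ratios scaling, and the cause was not tested. Left-out libraries gave 66 (without *dfr14* BRGC library 4) to 145 calls (without control body library 4), 39 to 108 more positive and 22 to 44 more negative. Directions turned, with the call lost or gained or on the other side, for *ap* (0.164), *Npc1a* (0.383), *vvl* (0.518) and *Syx1A* (0.664) and, in controls, *vvl* (0.249), *Start1* (0.443) and *Syt1* (0.394) with library size alone, and for *Npc1a* (0.063), *mt:CoIII* (0.782) and *mt:CoII* (0.648) with quantile normalization. Over the named genes, 2117 of the values for the *dfr14* difference kept direction and side of the threshold, 59 lost the call, 9 gained it and 7 turned. The settings not named here moved no count by over 1.5 times.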
